A study of Mus musculus with 2084 samples.

Results

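This is an account of 101 single cells with an oligodendrocyte-lineage transcriptome that were sorted from the mouse forebrain after brain ischemia. They are the cells of the study's ischemia count table whose names do not occur in the study's main count table: 101 of the 614 cells of the ischemia table, and of 2084 labelled cells in all. The rule used no measured value, although the authors may have kept these cells out of their main table by transcriptome. Of the 101 cells, 50 were taken 2 d after ischemia and 51 were taken 21 d after it. At 2 d, 14 came from a gate named for oligodendrocytes in the ventricular-subventricular zone (vSVZ), 2 from the vSVZ GLAST gate and 34 from the striatal GLAST gate. At 21 d the corresponding numbers were 11, 2 and 38.

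The study sequenced RNA by Smart-seq3 from single cells of the adult neural stem cell lineage, as part of an assay that also reads DNA methylation and accessibility, which were not analysed here. All cells of the ischemia table came from TiCY mice that were given tamoxifen at 2 months of age. In these mice tamoxifen switches on eYFP through a Cre driven by Tlx (Nr2e1), a gene of neural stem cells, so that these and their progeny carry the reporter. Bilateral carotid artery occlusion followed 2 weeks after tamoxifen, and mice were killed 48 h later (2 d, letter pI) or 3 weeks later (21 d, letter pH), so mice of 21 d were also older. Antibodies to CD9, CD45, Ter119, Prominin1, O4, PSA-NCAM and GLAST served the sort, and a plate could hold cells of 1 mouse or of a pool. The labels do not tie each gate to an antibody, nor say which cells were eYFP-positive. Every cell of 1 time carries 1 letter, taken as 1 replicate of 1 or more mice, so time, age, letter and any plate or mouse effect cannot be told apart. Comparisons between 2 d and 21 d are therefore descriptions with no test. Naive TiCY cells of the same vSVZ oligodendrocyte gate (14 cells, letter pM, of which 1 carries an astrocyte label) had tamoxifen and no ischemia. Naive wild-type (WT) cells labelled oligodendrocyte (9, 24 and 25 cells of letters pA, pB and pC) had neither. Both are set beside the ischemia cells as levels. All these naive cells came from the vSVZ, while 34 of the 50 cells of 2 d and 38 of the 51 of 21 d came from the striatal GLAST gate. Region and gate therefore cannot be told apart from ischemia where naive levels are set beside those of all cells of a time. The WT letters belong to another library set, in which some genes have 0 counts throughout.

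Oligodendrocytes make myelin, the lipid-rich sheath that insulates axons, from proteins such as Mbp, Mog and Mobp and from cholesterol and galactolipids. They arise from precursor cells that divide and that carry Pdgfra and the NG2 proteoglycan (Cspg4), by way of a short-lived newly formed stage marked by Enpp6, Gpr17 and Bcas1. White matter and the striatum are damaged when forebrain blood flow is interrupted, and oligodendrocytes in injured or inflamed tissue are known to switch on stress and acute-phase genes such as Serpina3n and C4b. GLAST (Slc1a3) is a glutamate transporter of astrocytes and stem cells, and O4 is a sulfatide antigen on the surface of late precursors and oligodendrocytes.

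The 101 cells held 9946 to 595184 counts (median 216542). Cells of 2 d were sequenced to a median of 349240 counts and cells of 21 d to 174316, and no pair of cells had identical counts. Levels are given as CPM (counts scaled to a total of 1e+06): those of a group are its cells' summed counts, with exact 95% Poisson intervals, and those of a cell are its own. Such intervals cover counting error only, since reads without molecular identifiers are not independent molecules.

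All but 16 of the cells were oligodendrocyte-like. Clustering of the 614 cells put the 101 into 3 clusters. Of these, 2 held 85 cells, and each had 16 of 17 oligodendrocyte markers in most of its cells and above the other clusters. The third held 16 cells, with 1 other cell of the table, and had all 8 precursor markers so. Among the 10 leading genes, the cluster of mostly 21 d held 3 oligodendrocyte markers and that of 2 d held 1, Apod. The third held 4 precursor markers among its 10. At a resolution of 0.5 or 2 the same 85 and 16 cells were found together. The 16 precursor-like cells were all of 2 d: 14 of the striatal GLAST gate, 1 of the vSVZ GLAST gate and 1 of the vSVZ oligodendrocyte gate. The 85 oligodendrocyte-like cells comprised 34 of 2 d (20 striatal GLAST, 13 vSVZ oligodendrocyte gate, 1 vSVZ GLAST) and 51 of 21 d (38, 11 and 2). The class was held by different clusters at the 2 times: 1 cluster had 33 cells of 2 d and the other all 51 cells of 21 d with 1 cell of 2 d.

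The defining markers were carried cell by cell. Mbp, Mog and Mobp, all 3 components of the myelin sheath, were together at 100 CPM or more in 83 of the 101 cells and in 0 of the 513 other cells of the table, which allows a share of up to 0.585% of such cells by the sampling of cells only. Among oligodendrocyte-like cells they were so in 32 of 34 at 2 d and 51 of 51 at 21 d, and in 0 of 16 precursor-like cells. The clusters were named from a marker list that holds these 3 genes. The counts per class therefore describe the classes and are no separate evidence for their names. The labels describe the sorted material as astrocytes and cells of the stem cell lineage, and the myelin markers go against this for the oligodendrocyte-like cells. Of 12 astrocyte markers, Aqp4, Gja1, Slc4a4, S1pr1 and Gjb6 had 0 counts in the oligodendrocyte-like cells of 2 d, and Aqp4 and Gjb6 in those of 21 d. The others had counts, among them Htra1 and Aldoc. At 2 d the 12 summed to a median of 1201 CPM in oligodendrocyte-like, 7198 CPM in precursor-like and 2877 CPM in the other cells. The stem cell marker Thbs4 had 0 counts in both, and Nr2e1, whose promoter drives the Cre, had 0.276 CPM at 2 d and 6.31 CPM at 21 d.

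Most of these cells were sorted through GLAST gates, but carried little GLAST RNA. In the 61 oligodendrocyte-like cells of GLAST gates, Slc1a3 had counts in 35, with a median of 6.33 CPM. In the 513 other cells of those gates it had counts in 404, with a median of 1873 CPM, at a similar median depth (190750 and 193672 counts). Members made up 34 of 143 cells of the striatal GLAST gate at 2 d (23.8%, exact binomial 95% interval 17.1 to 31.6) and 38 of 117 at 21 d (32.5%, 24.1 to 41.8). Oligodendrocyte-like cells alone were 13.99% (8.76 to 20.8) and 32.5%. These intervals cover the sampling of cells only. Every cell of a time shares a letter, so any variation between mice, plates or sorts is not in them. The shares of 2 d and 21 d are therefore set side by side as descriptions, with no test. How the gate was drawn on each sort day can set these shares, and this was not tested. In the vSVZ GLAST gate members were 2 of 173 and 2 of 156 cells.

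**Figure D1:**
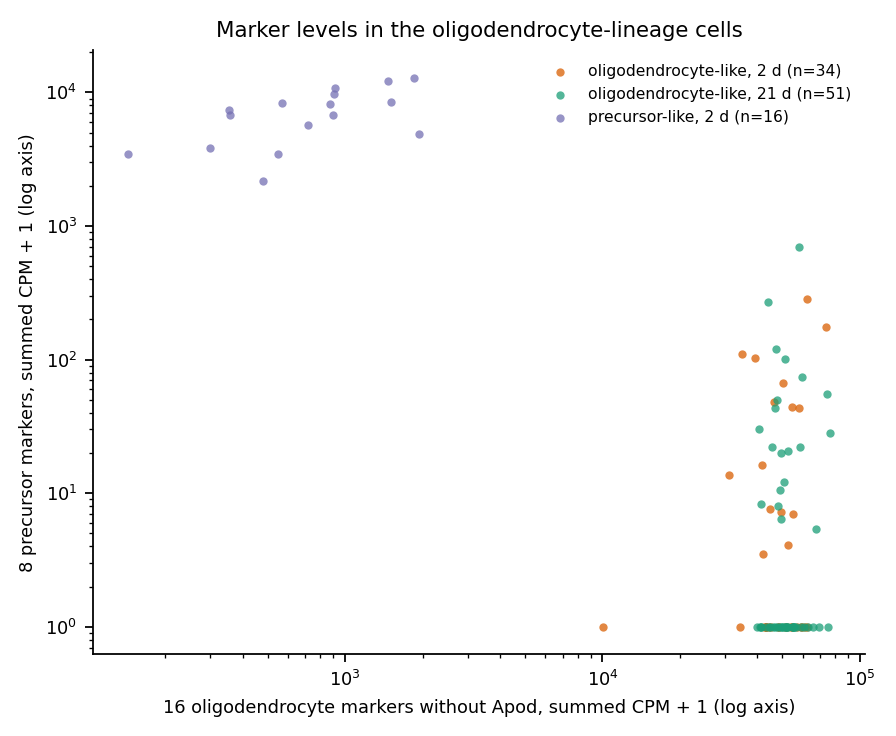
Summed level per cell of 16 oligodendrocyte markers, Apod left out (horizontal axis, CPM plus 1, log scale), against that of 8 precursor markers (vertical axis, CPM plus 1, log scale); each point is 1 of the 101 cells, coloured by class and time. The 85 oligodendrocyte-like cells lie to the right, and the 16 precursor-like cells, all of 2 d, lie apart at 2189 CPM or more of precursor markers. The classes were named from these same marker lists.

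At 2 d the oligodendrocyte-like cells had a set of highly expressed genes that stood much lower at 21 d, while none of 18 genes of myelin structure met the rule given below. Apod, a secreted lipid-binding lipocalin, was 84294 CPM at 2 d and 3565 CPM at 21 d. Cdkn1a, the cell cycle inhibitor p21, was 6003 against 3.49 CPM. The metallothioneins Mt1 and Mt2, the acute-phase protease inhibitor Serpina3n, the lipid-droplet coat protein Plin4 and the steroid-receptor co-chaperone Fkbp5 were likewise higher at 2 d. The calcium-binding protein S100b, the lysophosphatidic acid receptor Lpar1 and the growth factor Ptn (pleiotrophin) were lower. A gene was counted when its log2 ratio, with 5 CPM added to each time, was at least 2 in size, its higher level was at least 50 CPM with counts in at least 50% of those cells, and the intervals were apart. By this rule 168 genes were higher at 2 d (3.64% of the 4621 that could meet the rule) and 137 were lower (2.96%). The median log2 ratio over 8700 genes with a mean of at least 10 CPM was -0.12. Just inside the rule stood Nmral1 (2.00) and Cep170 (-2.004), and just outside it Fam214a (1.98) and Srp54c (-1.998). Of the 168 genes, 167 could be set beside naive TiCY cells. At 2 d 166 of these stood above the naive level, and 90 did so by a log2 ratio of at least 2. Of the 137 genes, 135 could be, with 133 below the naive level at 2 d and 62 by that size. At 21 d the summed level lay within the range of the 4 naive letters for 102 of the 167 and 62 of the 135.

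Over all 101 cells, the 16 precursor-like cells of 2 d included, 207 genes were higher (4.07% of 5088) and 122 lower (2.4%). In the vSVZ oligodendrocyte gate alone, with 14 and 11 cells, 504 were higher (9.77% of 5159) and 220 lower (4.26%). Of the 168 higher genes 124 met the rule in that gate, as did 65 of the 137 lower genes. Of the gate's cells, 13 of 2 d and 11 of 21 d are among those by which these genes were chosen. Part of this overlap is therefore built in. Within the class, striatal cells taken alone had 169 genes higher (3.64% of 4645) and 216 lower (4.65%), and vSVZ cells taken alone 416 (8.32% of 4998) and 257 (5.14%); 89 were higher and 61 lower in both. No gene among the 168 or the 137 separated all cells of 2 d from all cells of 21 d.

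**Figure D2:**
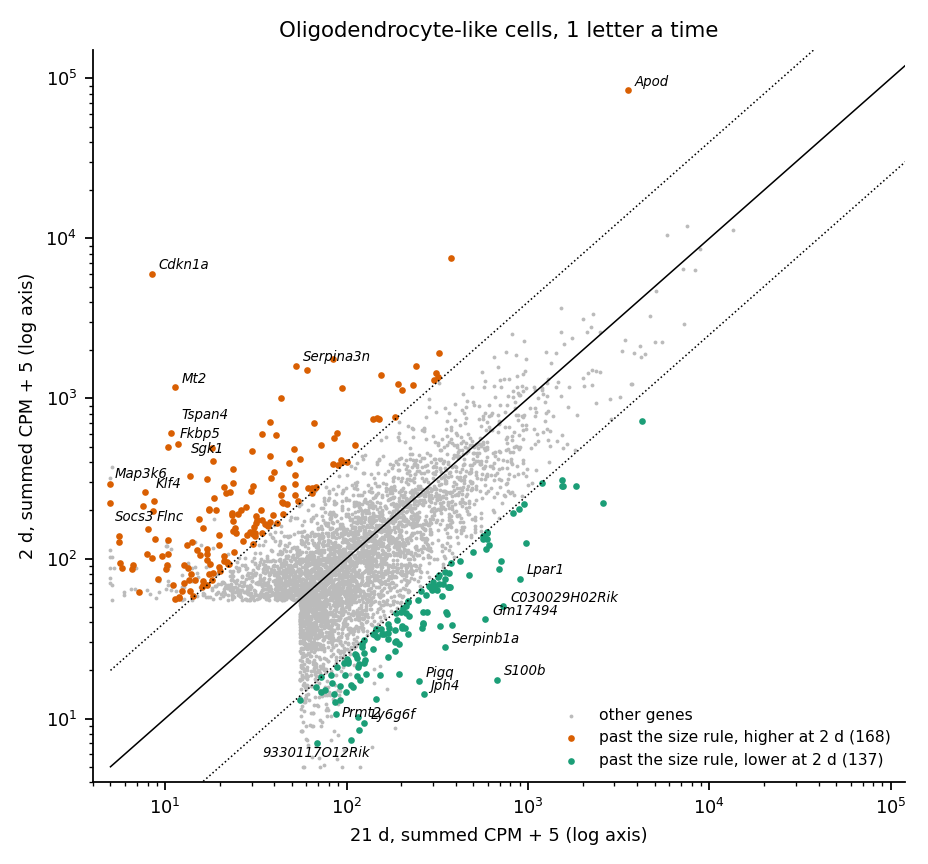
Summed level at 21 d (horizontal axis, CPM plus 5, log scale) against that at 2 d (vertical axis, same scale) in the 51 and 34 oligodendrocyte-like cells, for genes that could meet the size rule; coloured points met it, the solid line marks equal levels and the dotted lines a log2 ratio of 2 in size. Apod and Cdkn1a lie far above the solid line, and S100b and Lpar1 below it.

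Apod (chr16:31296192-31314808, - strand, GRCm38) made up a large part of the RNA read at 2 d. Per cell it was 0 at the lowest, 78599 at the median and 153277 CPM at the highest at 2 d, and 549.6, 2764 and 10128 CPM at 21 d. It thus took 8.43% of all counts of the cells at 2 d and 0.356% at 21 d, a log2 ratio of 4.56. The groups overlapped through few cells. Of the 34 cells of 2 d, 32 had at least 9247 CPM, and of these 1 lay within the range of 21 d, which ended at 10128 CPM. The remaining pair were 1 vSVZ cell with 0 CPM, the one that clustered with the cells of 21 d, and 1 striatal cell with 148 CPM. That vSVZ cell had no Mog count, 3161 CPM of Enpp6, 446 CPM of Gpr17 and 6628 CPM of Tcf7l2, the latter 3 being markers of newly formed oligodendrocytes. The striatal cell had 903 CPM of Mbp and 3689 CPM of Opalin. Naive levels of Apod were 1453 CPM in TiCY cells and 1509.5 to 3395 CPM in the WT letters, below that of 21 d. The precursor-like cells of 2 d, sorted in the same letter, had 1.39 CPM, and the other striatal GLAST cells 189 CPM at 2 d and 22.2 CPM at 21 d.

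**Figure D3:**
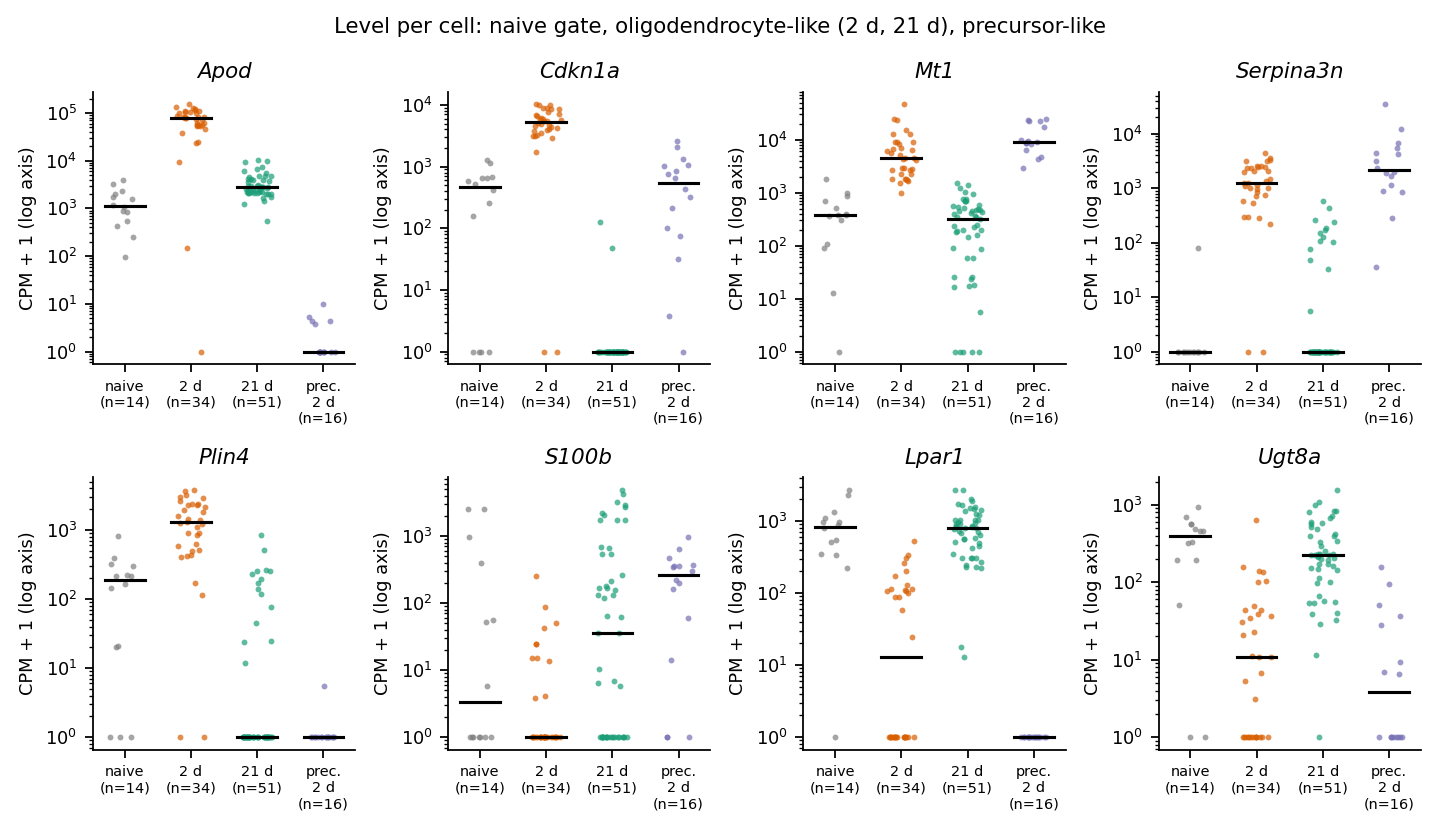
Level per cell (CPM plus 1, log scale, vertical axis) of 8 genes in naive TiCY cells of the oligodendrocyte gate, in oligodendrocyte-like cells of 2 d and of 21 d and in precursor-like cells of 2 d; each point is 1 cell and bars mark medians. Apod has medians of 78599 and 2764 CPM at 2 d and 21 d, and Lpar1 stands the other way, at 11.9 and 790.1 CPM.

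Cdkn1a (chr17:29090976-29100727, + strand), which stops the cell cycle downstream of p53, had the largest ratio (log2 9.47; intervals 5957 to 6049 and 2.37 to 4.95 CPM). It was 0, 5255 and 10315 CPM in the lowest, median and highest cell of 2 d. At 21 d it had counts in 2 of 51 cells, at most 123 CPM. Of the 34 cells of 2 d, 32 had counts, so nearly every cell was high at one time and at 0 at the other. In naive TiCY cells it was 505 CPM, with counts in 10 of 14 cells, and so between the 2 times; WT letters had 1.48 to 13.1 CPM. Precursor-like cells had 723 CPM. The other striatal GLAST cells had 732 CPM at 2 d and 22.9 CPM at 21 d, which also met the rule. Among 10 listed p53 targets, 6 reached a mean of 10 CPM and all 6 had ratios above 0 (median 1.30), but 2 met the rule, Cdkn1a and the stress sensor Sesn1 (76.2 against 13.3 CPM).

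Fkbp5 and Sgk1, among the 10 largest ratios, are described with other genes that steroid hormones are known to induce; these were grouped after their values were seen, and no list of such genes was counted. Fkbp5, a co-chaperone that damps the glucocorticoid receptor, was 0, 411 and 1678 CPM in the lowest, median and highest cell at 2 d (33 of 34 cells with counts) and at most 70.8 CPM at 21 d (7 of 51). Sgk1, the serum- and glucocorticoid-regulated kinase, was 0, 523 and 1261 CPM at 2 d and at most 94.4 CPM at 21 d. The log2 ratios of the summed levels were 5.58 and 5.47, and for both genes cells of 2 d were high with a few exceptions. Klf9, a transcription factor, was 1391 against 149 CPM, the repressor Zbtb16 602 against 83.1 CPM and the clock gene Per1 101 against 5.4 CPM. Tsc22d3, a further gene of this kind, was not different by the rule (39.9 and 37.5 CPM). Naive TiCY cells were again above cells of 21 d, with 161 CPM of Fkbp5, 189.5 of Sgk1, 869.7 of Klf9 and 584 of Zbtb16. For Zbtb16 this was close to the level of 2 d. WT letters ranged from 2.91 to 8.11 CPM for Fkbp5 and from 54.1 to 134 CPM for Sgk1.

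Map3k6, a stress-activated kinase, and Socs3, an inhibitor of cytokine signalling through JAK and STAT proteins, had no count in any of the 51 cells of 21 d. Map3k6 was 286 CPM at 2 d, with counts in 25 of 34 cells, and so at least 846-fold higher against a floor of 3 counts over the cells of 21 d. It was also at 0 in all 4 naive letters. Socs3 was 217 CPM, with counts in 23 cells, at least 641-fold higher. Unlike Map3k6 (4.34 CPM), Socs3 was also present in the precursor-like cells (475 CPM). It stood at 171 and 0.537 CPM in other striatal cells at 2 d and 21 d, past the rule there too. Of the remaining genes among the 10 largest ratios, Tspan4, a tetraspanin, was 607 against 5.74 CPM, with counts in 27 of 34 and 2 of 51 cells. The transcription factor Klf4 was 255 against 2.7 CPM, with counts in 27 and 4 cells. Flnc, a filamin that crosslinks actin, was 208 against 2.59 CPM, but its median cell of 2 d had 9.85 CPM and its highest 3493 CPM, so it was uneven among cells.

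The metallothioneins Mt1 and Mt2, small proteins that bind zinc and copper, were 4519.5 and 373 CPM in the median cell of 2 d and 313 and 0 CPM in that of 21 d. Mt1 ranged from 991 to 46770.2 CPM at 2 d and from 0 to 1549 CPM at 21 d. Mt2 reached 8507 and 54.5 CPM, and cells of the 2 times overlapped for both genes. The log2 ratios were 4.32 and 6.70. Both were also high outside the class: precursor-like cells had 12409 and 4781 CPM, and other striatal cells had 5002 and 1582 CPM at 2 d against 1718 and 166 CPM at 21 d. Naive TiCY cells had 464 CPM of Mt1 and 10.7 CPM of Mt2, near the levels of 21 d.

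Serpina3n, a secreted inhibitor of serine proteases and a known marker of reactive oligodendrocytes and astrocytes, was 0, 1259 and 4494 CPM in the lowest, median and highest cell of 2 d. At 21 d it was 0 in the median cell and 579.6 CPM at the highest, with counts in 14 of 51 cells, and the log2 ratio was 4.93. A list of 16 genes associated with reactive oligodendrocytes had 15 with a mean of 10 CPM or more. Their median ratio was 1.37, 13 were above 0, and 7 met the rule: Serpina3n, Klk6, H2-K1, Socs3, Cdkn1a, Plin4 and Sgk3. The list was not particular to these cells. In the other striatal GLAST cells its median was 0.71 over 14 genes, with 10 above 0 and 4 below. Serpina3n, Socs3, Anxa2 and Cdkn1a met the rule there on the higher side. Klk6, a kallikrein-related protease of oligodendrocytes, was 1922 against 317 CPM, and H2-K1, a class I histocompatibility heavy chain, 126 against 5.4 CPM. C4b, a complement component, and H2-D1 were 2286 against 944 and 810.3 against 364 CPM, which did not meet the rule. Il33, an alarmin stored in oligodendrocyte nuclei, was 1443 against 2125 CPM and so not higher at 2 d. C4b was 27.4 CPM in naive TiCY cells and 42.6 to 115 CPM in the WT letters, below both times after ischemia.

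Genes of lipid storage and energy use were also among those past the rule; the genes of this paragraph other than Plin4 and Ddit4 were chosen after their values were seen. Plin4, which coats lipid droplets, was 0, 1281 and 3822 CPM at 2 d and 0, 0 and 855 CPM at 21 d (log2 ratio 4.63). It was 0.31 CPM in precursor-like cells. Gpd1, the glycerol-3-phosphate dehydrogenase that links glycolysis to lipid synthesis, was 34.8, 953 and 7434 CPM at 2 d and at most 336 CPM at 21 d. Ddit4, an inhibitor of the growth kinase mTORC1, was 90.5, 807 and 2339 CPM at 2 d and at most 288 CPM at 21 d. Gpd1 and Ddit4 had counts in all 34 cells of 2 d. In the 32 with at least 1000 CPM of Apod, the lowest levels were 332 and 239 CPM, within the upper end of the range of 21 d. Pnpla2, the lipase that starts triglyceride breakdown, was 310.1 against 12.05 CPM, and the desaturase Scd3 1233 against 188 CPM. The other striatal GLAST cells had 30.0 and 22.4 CPM of Gpd1 and 85.0 and 55.8 CPM of Ddit4 at 2 d and 21 d, neither past the rule.

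Some of the genes with high ratios carry, just before their start sites, letters that fit the DNA element of the glucocorticoid receptor; the motif was chosen with the ratios known. The motif searched was GNACA followed after 3 bases by TGTNC, on both strands of the 250 bases before each start in the RefSeq promoter table of build GRCm38.p6. It was found in 0.387% of 32851 promoters and in 119 of 27025 genes (0.44%). Of the 168 genes higher at 2 d, 134 matched a promoter by symbol and 6 held the motif (4.48%): Map3k6, Sgk1, Serpina3n, Mt1, Scd3 and Fam107a. Of the 137 lower genes, 108 matched and 1 held it (0.926%), Folh1. The stretches of Map3k6, Sgk1 and Serpina3n, which are among the 10 largest ratios, and of Mt1 are shown as promoters of genes described above that hold the motif; capitals mark the motif. They lie at chr4:133240568-133240817, chr10:21993640-21993889, chr12:104406458-104406707 and chr8:94178839-94179088, all on the + strand, and the motif begins 181, 188, 78 and 94 bases before the start site. For Sgk1 the table holds 6 starts, of which 1 is shown.
Map3k6: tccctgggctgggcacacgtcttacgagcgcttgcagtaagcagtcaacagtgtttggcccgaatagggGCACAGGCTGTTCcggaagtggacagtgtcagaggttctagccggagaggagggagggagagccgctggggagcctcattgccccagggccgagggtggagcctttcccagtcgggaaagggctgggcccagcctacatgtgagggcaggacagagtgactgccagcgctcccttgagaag
Sgk1: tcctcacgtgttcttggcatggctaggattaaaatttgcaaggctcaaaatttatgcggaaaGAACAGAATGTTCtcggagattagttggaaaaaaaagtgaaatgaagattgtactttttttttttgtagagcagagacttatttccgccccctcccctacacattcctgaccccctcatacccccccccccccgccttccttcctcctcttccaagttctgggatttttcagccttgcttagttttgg
Serpina3n: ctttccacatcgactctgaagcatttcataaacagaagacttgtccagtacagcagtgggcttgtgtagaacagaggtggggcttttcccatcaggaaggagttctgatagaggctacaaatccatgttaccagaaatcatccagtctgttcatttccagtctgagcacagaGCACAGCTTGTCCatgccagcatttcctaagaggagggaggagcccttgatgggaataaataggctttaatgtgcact
Mt1: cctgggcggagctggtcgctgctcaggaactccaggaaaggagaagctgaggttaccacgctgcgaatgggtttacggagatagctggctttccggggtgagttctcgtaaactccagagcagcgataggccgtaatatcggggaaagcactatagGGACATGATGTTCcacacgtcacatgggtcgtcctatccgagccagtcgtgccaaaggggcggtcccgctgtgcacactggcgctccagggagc

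The upstream stretch of Mt2 (chr8:94172368-94172617, + strand) is shown for the core of the metal response element, TGCNCNC, through which zinc is known to drive metallothionein genes; capitals mark it on either strand. It held 5 matches, which begin 223, 178, 128, 113 and 50 bases before the start, and 4.65% of all promoters held 3 or more. The core itself is common, with 44.4% of promoters and 47.2% of genes holding at least 1. So did 93 of the 134 matched higher genes (69.4%) and 61 of the 108 matched lower genes (56.5%). Mt1, whose start lies close by on the same chromosome, held 1 match. Another motif, TTCNNNGAA, the form bound by STAT proteins, was in 7.02% of promoters and 8.13% of genes. It was in 11 of the 134 (8.21%), near the share of all genes, and 4 of the 108 (3.7%). Matches describe letters only, and binding was not measured.
Mt2: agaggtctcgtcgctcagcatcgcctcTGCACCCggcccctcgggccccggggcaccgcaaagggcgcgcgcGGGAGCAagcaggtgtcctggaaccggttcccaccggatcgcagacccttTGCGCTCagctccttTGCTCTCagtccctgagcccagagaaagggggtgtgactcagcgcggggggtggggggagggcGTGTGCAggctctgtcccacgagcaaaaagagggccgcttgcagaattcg

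Among genes lower at 2 d, S100b, a calcium-binding protein of glia, had the largest ratio (-5.28). It was 0 in the median cell and 251 CPM in the highest cell of 2 d, and 0, 34.9 and 4907 CPM at 21 d, so the level of 21 d rested on part of the cells. Lpar1 was more even. It was 0, 11.9 and 529 CPM at 2 d and 11.9, 790.1 and 2711 CPM at 21 d, when all 51 cells had counts (log2 ratio -3.60). Naive cells, all of the vSVZ, had 966 CPM of Lpar1 in TiCY mice and 550.1 to 1330.3 CPM in WT mice, and so stood near 21 d and above 2 d. The other coding genes among the 10 lowest ratios were Jph4, a junctophilin (9.2 against 262 CPM), Pigq, of glycolipid anchor synthesis (12.1 against 245 CPM), the arginine methyltransferase Prmt2 (3.5 against 112 CPM), Ly6g6f (4.32 against 119.8 CPM) and the protease inhibitor Serpinb1a (22.8 against 346 CPM). The unnamed transcripts C030029H02Rik, 9330117O12Rik and Gm17494 completed the 10, with ratios of -3.86, -3.84 and -3.80. Gm17494 was the reverse in the other striatal cells (1514 CPM at 2 d, 76.5 CPM at 21 d), and 1 cell of 21 d had 10916 CPM of it, while the medians were 34.9 CPM at 2 d and 41.7 CPM at 21 d.

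Further lower genes, named after their values were seen, had wide coverage of cells. Ptn was 0, 62.2 and 919 CPM at 2 d and 213, 2411 and 6646 CPM at 21 d, with 1548 CPM in naive TiCY cells. It differed in the same direction in the other striatal cells (453 against 5893 CPM). Stmn1, which destabilises microtubules, was 239 CPM in the median cell of 2 d and 1413 CPM in that of 21 d, and Hdac11, a histone deacetylase, 139 and 1541 CPM. Ugt8a, which makes the myelin galactolipid galactosylceramide, was 33.1 against 322 CPM, and the fatty-acid elongase Elovl6 58.4 against 309 CPM. These were the only members of the 15 genes of myelin lipid synthesis to meet the rule, and the list's median was -0.04 over 14 genes. Naive TiCY cells had 416 CPM of Ugt8a and 420.4 CPM of Elovl6, near the levels of 21 d.

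No gene of myelin structure met the rule in either direction. Mbp, the basic protein that compacts myelin, was 903, 8029 and 17270.2 CPM in the lowest, median and highest cell at 2 d and 4865, 8534 and 13762 CPM at 21 d (log2 ratio -0.05). Mog, a glycoprotein of the outer myelin surface, was 0, 809.6 and 1491 CPM and 293, 1021 and 2553 CPM, and Mobp 2605 and 2116 CPM over the summed cells. Cells of both times overlapped for every one of these. Of 18 genes of myelin structure, 0 met the rule either way, 12 had ratios below 0 and the median was -0.40, against -0.12 for all genes. The lowest were Opalin, a sialylated membrane protein of mature oligodendrocytes (285 against 992 CPM, -1.78), and Ermn, a cytoskeletal protein (988 against 2841 CPM, -1.52). Car2, carbonic anhydrase of mature oligodendrocytes, was just outside the rule (735 against 2857 CPM, -1.95). In the vSVZ gate alone Opalin, Ugt8a, Car2 and Gjb1, a gap junction protein, met it on the lower side, and over all 101 cells Opalin, Ermn, Ugt8a and Car2 did. Markers of newly formed cells were not different by the rule: Bcas1 was 626 and 631 CPM and Enpp6 66.2 and 152 CPM, with 3161 CPM in the single vSVZ cell of 2 d described above.

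Of 16 oligodendrocyte transcription factors, 12 reached 10 CPM and 2 met the rule, Sox8 (381 against 84.2 CPM) and Sox2 (162 against 36.5 CPM), both higher at 2 d. Sox2 is otherwise known from stem cells and precursors, and in the other striatal cells it was 79.0 CPM at 2 d and 414 CPM at 21 d, past the rule in the opposite direction. The lineage factors Olig1 (316 and 333 CPM), Sox10 (349.6 and 307 CPM) and Myrf, which switches on myelin genes (678 and 417 CPM), did not meet it. Among 18 immediate early genes 3 were higher by the rule, Junb, Klf4 and Nfkbia, and the median was 1.39 over 14 genes. Fos had counts in 17 of 34 and 9 of 51 cells (201 against 90.0 CPM) and did not meet the rule. Nfkbia, the inhibitor of NF-kB, had counts in all 34 cells of 2 d (391 against 43.0 CPM). The interferon list of 20 genes had a median of 1.34 over 10 genes, with Stat2 (269.7 against 59.7 CPM) past the rule.

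Stress and metabolism lists were mixed. The heat shock list had a median of -0.86 over 10 genes, with 8 below 0 and 0 past the rule, and its member Hsp90aa1 was 3259.7 and 4677 CPM. In other striatal cells Hsp90aa1 was higher at 2 d (2661 against 652 CPM, past the rule). Of 12 genes of the integrated stress response, Ddit4 alone met it (median 0.38 over 8). Of 13 hypoxia genes, 0 did (median 0.11 over 7). Of 12 oxidative stress genes, 2 did, Mt1 and Mt2 (median 0.00 over 9). All 7 measured genes of iron handling had ratios above 0 (median 0.86) and 0 met the rule. Fth1, the ferritin heavy chain, was 11963 and 7525 CPM, Ftl1, the light chain, 908 and 499 CPM, and Trf, the iron carrier transferrin, 10514 and 5861 CPM. Genes of cholesterol synthesis and uptake had a median of -0.16 over 16. Ribosomal protein genes had a median of 0.39 (20 of 24 above 0), oxidative phosphorylation genes 0.25 (14 of 20), channels and axon support genes -0.17 over 8, and adhesion and guidance genes -0.54 over 10, and 0 of each met the rule.

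**Figure D4:**
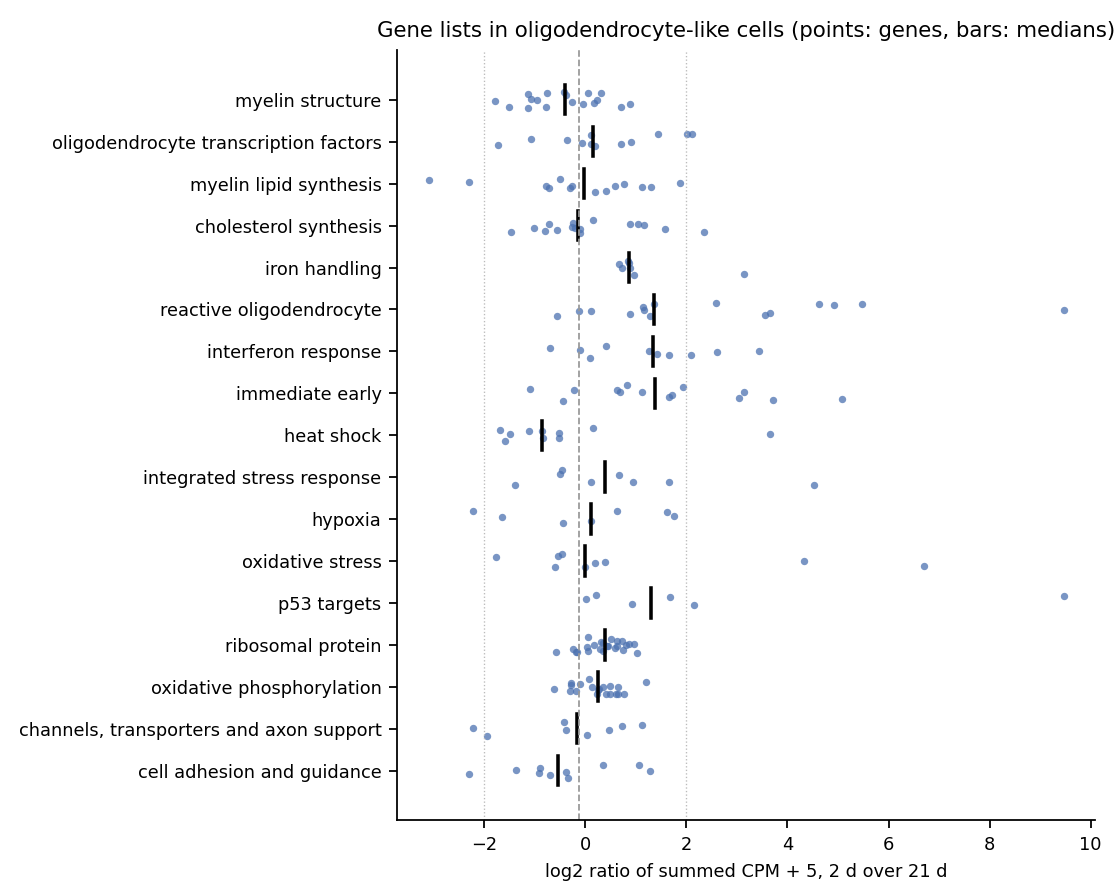
Log2 ratio of 2 d over 21 d (horizontal axis) for each gene with a mean of at least 10 CPM, by gene list, in the oligodendrocyte-like cells; each point is 1 gene, bars mark list medians, dotted lines a ratio of 2 in size and the dashed line the median of all genes, -0.12. The reactive oligodendrocyte list has a median of 1.37, and myelin structure -0.40; a point past a dotted line can still miss the rule on the share of cells with counts or on the level.

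Some markers of other cell types differed between the times, and their part in the results above was not tested. The summed level of 12 astrocyte markers was 0, 1201 and 4104 CPM in the lowest, median and highest oligodendrocyte-like cell of 2 d, and 5.62, 473 and 2646 CPM at 21 d; in the other cells the medians were 2877 and 32496 CPM. Of the 12, Aldoc (359 against 18.6 CPM) and Htra1 (1131 against 197 CPM) were higher by the rule and Slc1a2 (11.7 against 78.1 CPM) lower, while Aqp4 and Gjb6 were at 0 at both times. In other striatal cells Aldoc and Htra1 went the other way (1425 to 3017 and 1264 to 2634 CPM from 2 d to 21 d). The neuroblast list was carried by 1 gene, the tubulin Tubb3 (194 against 3.6 CPM), with Dlx2 and Sp9 at 0 at both times. The microglial markers P2ry12, C1qa, Csf1r, Aif1 and Ptprc had 0 counts at both times, as did the endothelial markers Cldn5 and Slco1a4, and the summed microglial and endothelial levels were 0 in the median cell. The summed mature neuron, pericyte and fibroblast levels were also 0 in the median cell of both times. The ependymal sum was 2.81 CPM at 2 d and 51.5 CPM at 21 d, and the erythroid sum was 0 at both medians with up to 725 CPM in a cell of 21 d. The summed proliferation level was 63.2 and 4.6 CPM in the median cell, with Cdk1 at 0 at both times.

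Depth differed by time, and cells were therefore also compared at equal depth. With each cell thinned to 50000 counts, which left out 3 of the 34 cells of 2 d and none of 21 d, Cdkn1a had counts in 29 of 31 and 2 of 51 cells (unthinned 32 of 34 and 2 of 51), Serpina3n in 29 and 13 and Lpar1 in 15 and 50. Thinning lowered the cells of 21 d with counts from 14 to 6 for Sgk1 and from 16 to 8 for Mt2.

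The other striatal GLAST cells of the same letters, 109 at 2 d and 79 at 21 d, had 494 genes higher (8.44% of 5852) and 173 lower (2.96%). Of the 168 higher genes, 30 met the rule in the same direction there, 123 had the same sign and 1 met it in the opposite direction; of the 137 lower genes, 18, 113 and 1 did. The median ratio of the 168 was 2.68 in oligodendrocyte-like cells, by which they had been chosen, and 0.63 in the other striatal cells; for the 137 it was -2.33 and -1.11.

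The 16 precursor-like cells were found at 2 d and not at 21 d. Pdgfra, the receptor of the precursors' growth factor, had counts in 17 of 50 cells of 2 d and in 0 of 51 of 21 d, which allows a share of up to 5.88% of cells with a count. Cacng4 had counts in 16 and 0 cells. In the 16 cells the markers were at 809 CPM for Pdgfra, 645 for the proteoglycan Cspg4, 2371 for the phosphatase Ptprz1 and 1728 for Lhfpl3. Pdgfra was 176, 799.7 and 1846 CPM in the lowest, median and highest cell, so all 16 carried it, and Ptprz1 503, 2142 and 4833 CPM. Mki67 and Cdk1, which dividing cells express, were at 0 in all 16, and the summed proliferation level of these cells had a median of 11.2 CPM. The sum of the astrocyte markers was 1519, 7198 and 10674 CPM in these cells, with Gja1 and S1pr1 at 0.

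The precursor-like cells shared part of the genes that were high in oligodendrocyte-like cells of the same day. Serpina3n was 4911 CPM, against 1597 CPM in oligodendrocyte-like cells of 2 d, Mt2 4781 against 1169 CPM, Socs3 475 against 217 CPM and Fkbp5 736 against 493 CPM. Serpina3n varied widely among them, at 35.5, 2197 and 35122 CPM in the lowest, median and highest cell. Other genes were lower in the precursor-like cells, with Apod at 1.39 against 84294 CPM, Plin4 at 0.31 against 1491 CPM, Klk6 at 0 against 1922 CPM and Cdkn1a at 723 against 6003 CPM. Chst2, a sulfotransferase, was 2517 CPM over the 16 cells (1152, 2352 and 5034 per cell) and 197 CPM in the oligodendrocyte-like cells. By the rule, 915 genes were higher in precursor-like than in oligodendrocyte-like cells of 2 d (16.2% of 5654) and 433 lower (7.66%). The clusters were drawn on these genes, so the counts only describe them. Among the largest ratios were those of Ptprz1, Tmem176b, Lhfpl3 and Pdgfra on the higher side and Apod, Ptgds, Mal, Klk6 and Mag on the lower.

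Oligodendrocyte-like cells of the striatum and of the vSVZ differed by 1 gene that met the rule in both letters. All striatal cells came from the GLAST gate, while 13 of 14 vSVZ cells of 2 d and 11 of 13 of 21 d came from the oligodendrocyte gate, so region and gate cannot be told apart. At 2 d 80 genes were higher in striatal cells (1.77% of 4530) and 149 lower (3.29%), and at 21 d 55 were higher (1.17% of 4712) and 20 lower (0.424%). In both letters 1 gene of 3502 was higher in the striatum (0.0286%) and 0 were lower (0.0%). It was Polr2e, a subunit shared by the RNA polymerases, at 145 against 27.6 CPM at 2 d and 135 against 28.7 CPM at 21 d. Apod and Cdkn1a were high at 2 d in both regions. Apod was 148, 101176 and 153277 CPM in the lowest, median and highest of 20 striatal cells of 2 d and 0, 57029 and 87178 CPM in 14 vSVZ cells. At 21 d the medians were 2795 and 2686 CPM. Cdkn1a was 6390.1 and 3606 CPM in the median striatal and vSVZ cell of 2 d, and 0 in both at 21 d. Whether the difference between the times itself differs between regions was not tested, as each time is 1 letter.

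Compared with the 513 other cells of the table, the 101 cells had 212 genes higher by the rule in both letters (4.79% of 4429) and 101 lower (2.28%). This contrast is a description, since the authors may have set these cells apart by transcriptome. Among the 10 largest on the higher side were Mag, Mbp, Trf, Mobp, Ptgds, Mal, Apod, Kcna1 and Ppp1r14a, mostly myelin genes. Mag, an adhesion molecule between myelin and axon, was 3995 against 2.46 CPM at 2 d and 8297 against 10.1 CPM at 21 d. Kcna1, a potassium channel subunit, was 1342 against 1.91 and 849.8 against 0.52 CPM, and Ptgds, the prostaglandin D synthase, 4031 against 15.8 and 7149.8 against 25.6 CPM. The 10 largest on the lower side were Gja1, Ccnd2, Prdm16, Ezr, Fstl1, Pou3f4, Sox11, Dapk1, Tead1 and Mlc1. They include Gja1, the gap junction protein of astrocytes (0 against 199 CPM and 2.81 against 719.9 CPM), and Ccnd2, a cyclin (51.8 against 2269 and 16.8 against 2344 CPM). Between the times, the 513 other cells had 156 genes higher at 2 d (2.64% of 5911) and 88 lower (1.49%). The other cells at 2 d had 114 CPM of Apod and 17.1 CPM at 21 d, so Apod had the same direction over time there at a far lower level.

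The sort itself allowed 1 test, since naive TiCY mice (pM), 2 d (pI) and 21 d (pH) each had cells of the vSVZ oligodendrocyte gate (14, 14 and 11) and of the vSVZ GLAST gate (188, 178 and 157). No gate rests on the transcriptome, but the cells of pM come from the main table. The authors may have chosen the cells of that table by transcriptome, and the effect of this was not tested. Counts were summed per gate and letter, which gave 1843297 to 2877430 counts in the oligodendrocyte gate and 23877801 to 34532210 in the GLAST gate. The CPM of these sums use totals adjusted by edgeR's TMM factors, and so differ somewhat from the CPM given above for the same cells. By edgeR's quasi-likelihood test with Benjamini-Hochberg adjustment at 0.05, 405 of 15639 genes rose in the oligodendrocyte gate (2.59%) and 362 fell (2.31%). With the letter as a replicate block, which the pairing check called for, 565 rose and 589 fell. All 767 called genes had sums that did not overlap between the gates, as had 33.6% of all genes tested. The calls rest on all 3 letters: without pH 54 rose and 19 fell, and without pI or without pM 0 did either way, with 5051 and 3612 genes at an unadjusted p under 0.05. Of the gate's cells, 1 of pI was precursor-like and 1 of pM carries an astrocyte label. Without these 2, an alternative chosen after seeing the data, 646 rose and 2408 fell.

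Myelin genes rose together. Of 18 genes of myelin structure 11 rose and 0 fell, among them Mbp, Mog, Mobp, Cnp and Myrf, and 16 rose with the block. Mog had means of 1035 ± 160.03 and 21.5 ± 8.67 CPM (SD, n = 3), with a log2 fold change of 5.59 ± 0.63 and an edgeR adjusted p of 0.00815. Mag and Mal, with log2 fold changes of 7.23 and 7.64, missed the threshold (edgeR adjusted p = 0.0531 and 0.0523; 0.00139 and 0.00529 with the replicate block). Among the 10 largest changes were Opalin (823 ± 576 against 2.81 ± 4.58 CPM, adjusted p = 0.0379), Tspan2, a tetraspanin of myelin (1781 ± 723 against 4.73 ± 6.36 CPM, adjusted p = 0.0205) and Apod. The sums of Apod were 1608, 57980.2 and 3519.8 CPM in the oligodendrocyte gate of pM, pI and pH, and 3.94, 19.9 and 111 CPM in the GLAST gate (log2 fold change 8.88 ± 2.01, edgeR adjusted p = 0.0379). Apod was thus higher in the oligodendrocyte gate of every letter, and the sum of 2 d exceeded that of the other letters by far.

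The remaining genes among the 10 largest rises were Gm42756, Cavin2, Gm44866, Tshb, Fbxw15, Cyp2j12 and Rasal1. Cavin2, a protein of caveolae, had 66.0, 151 and 30.6 CPM in the oligodendrocyte gate and at most 0.0496 CPM in the GLAST gate (edgeR adjusted p = 0.00815). Cyp2j12, a cytochrome P450, had 114 ± 39.4 against 0.213 ± 0.0992 CPM (SD, n = 3; edgeR adjusted p = 0.00815). Gm42756 had 0 counts in all 3 GLAST sums and was at least 2395-fold higher against a floor of 3 counts over that gate. It overlaps Fbxw15 and Tshb lies within Tspan2 on the opposite strand, and without strand-specific counting the reads of such pairs cannot be told apart.

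Each of the 10 genes with the largest fall had 0 counts in all 3 oligodendrocyte sums, among them Mki67, Celf4, Cdca7, Igfbp5, Gad2, Nrep, Egfr, Pou3f4 and Tnfrsf19. Against a floor of 3 counts over the gate (0.439 CPM), Mki67, a marker of dividing cells, was at least 707-fold lower, with 213, 225 and 461 CPM in the GLAST sums of pM, pI and pH (edgeR adjusted p = 0.00815). Egfr, a receptor of activated stem cells, was at least 410.0-fold lower. Of 8 proliferation genes 4 fell, of 11 tested neuroblast genes 5 fell and of 8 stem cell genes 2 fell. With the replicate block 3, 8 and 4 fell, and Birc5, a protein of cell division, lost its call (edgeR adjusted p = 0.0468, 0.0749 with the block). Of 12 astrocyte markers 0 passed by edgeR without the block, with 9 lower at an unadjusted p under 0.05, while 11 fell with the block, 8 by DESeq2 and 11 by limma. The 12 include Slc1a3, which encodes GLAST, the protein for which the GLAST gate is named. Slc1a3 had 443, 11.02 and 301 CPM in the oligodendrocyte gate against 4262, 1479 and 3204 CPM in the GLAST gate. A difference in this gene can follow from the sort itself and is not taken as a finding.

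**Figure D5:**
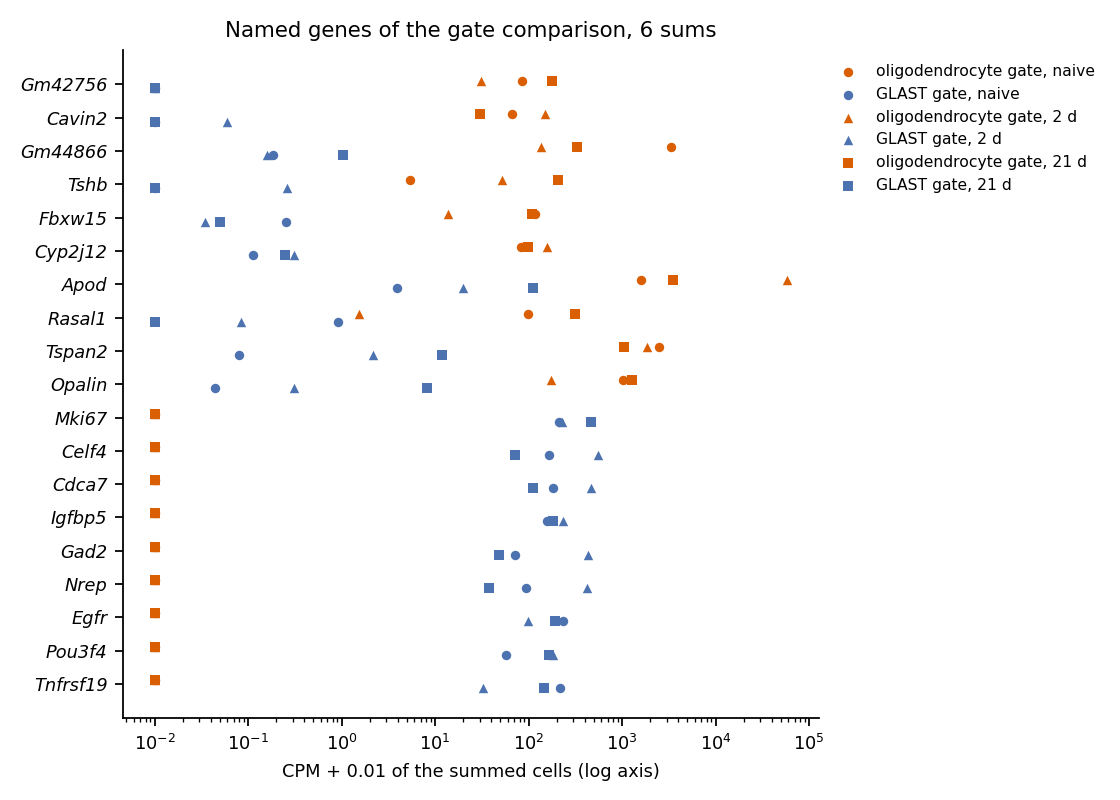
Summed level (CPM plus 0.01, log scale, horizontal axis) of named genes in the oligodendrocyte and GLAST gates of the vSVZ; each point is 1 letter (pM naive, pI 2 d, pH 21 d), and sums of 0 lie over each other at the left edge. The 3 letters of 1 gate lie apart from those of the other for each gene shown.

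Other lists of the oligodendrocyte lineage changed in part. Of 15 tested transcription factors 5 rose (Olig1, Sox10, Myrf, Zfp536 and St18) and 1 fell, Hes5, a Notch target; with the replicate block 7 rose and 3 fell. Of 15 genes of myelin lipid synthesis 6 rose and 0 fell (7 rose with the block), among them Ugt8a, Fa2h, which hydroxylates myelin fatty acids, and Gal3st1, which makes sulfatide, the O4 antigen. Of 18 cholesterol genes, 0 passed by edgeR or limma, 1 was lower at an unadjusted p under 0.05 and 1 fell by DESeq2. Newly formed markers had 3 rises of 6 (Enpp6, Bcas1, Gpr17), adhesion and guidance genes 6 rises and 1 fall of 12 (8 and 1 with the block), channels and axon support genes 4 rises of 10 (with 1 fall added by the block) and iron genes 2 rises of 9, Trf and Fth1. The reactive oligodendrocyte list had 3 rises of 16, Il33 and Plin4 among them, and 2 falls (Cst3, Igfbp5), and 5 rises with the replicate block. Klk6 and Serpina3n missed the threshold without the block and passed with it (edgeR adjusted p = 0.0523 and 0.356 without it, 0.00197 and 0.0494 with it). Of 7 tested markers of mature neurons 4 fell, among them Gad1 and Snap25, of 4 pericyte markers 2 fell (Pdgfrb, Myl9) and of 5 ependymal markers 1 fell, Rarres2. The interferon list had 1 rise of 19 (Xaf1), the integrated stress response 1 rise of 10 (Psat1) and the oxidative stress list 1 fall of 12 (Slc7a11), or 2 with the block. In the precursor, ribosomal protein, oxidative phosphorylation, heat shock, hypoxia, p53, immediate early, microglia, endothelial, fibroblast and erythroid lists, 0 of 109 tested genes passed by edgeR; 13 had an unadjusted p under 0.05, DESeq2 called 7 and limma 6, and with the replicate block 2 rose and 1 fell. The median log2 fold change of all genes was -0.38.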

How the data were processed

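Per the labels, RNA was read by Smart-seq3 in single cells, each deposited as 1 sample. The authors deposited raw counts per gene and cell. The submitters' processing notes name STAR, featureCounts and GRCm38 (mm10); versions, annotation and cell filters were not given in the sources used here. Every value was checked and was whole. In the main table, 603 of 2584 cells matched no label and were not used. Over the 513 cells in both tables, 99.995562% of values were equal for symbols held by both. Positions of genes were taken from GENCODE M21 (GRCm38); of 40 named genes 39 had a position, 8 overlap another gene on the same strand and 20 on either.

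The members, the lists and the tests were chosen with earlier results of these data known. CPM are counts over a cell's or group's total. Cells were clustered with scanpy 1.11.5 and leidenalg 0.10.2 (2000 variable genes, 20 components, 15 neighbours, resolution 1) on log2 of CPM/10 plus 1, and clusters were named from marker lists. No doublet caller was run. Times, each with 1 letter, were compared by the size rule of the text; TMM scaling shifts the ratios by 0.12 (log2). The genes named are the 10 with the largest ratio in each direction, the members of the lists with the highest level or that met the rule, and those said to be chosen after their values were seen. Some genes that these rules select are not reported here.

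Gates were tested on sums per gate and letter with edgeR 4.0.16 (R 4.3.3; TMM, filterByExpr, quasi-likelihood F test, Benjamini-Hochberg at 0.05, 4 residual and 5.67 prior degrees of freedom), and the genes named are the 10 largest changes in each direction with the same sign in all 3 letters and at least 50 CPM. Nothing says that letters are separate mice, so p-values measure the spread between letters. Same-letter sums of both gates deviated together (r = 0.258, 0.212 and 0.160; different letters -0.192 to -0.0248, across genes), so values with the letter as a block are given beside the result. On simulated data, 135 of 200 genes changed 8-fold were recovered (67.5%), and 2.17% of calls were false. The simulation gave every gene the same assumed dispersion, changed only genes above a minimum level and held no effect shared by a letter. Its rates therefore need not hold for the real sums. Alternatives were other pseudocounts, scalings, gates, filters, DESeq2 1.42.0, limma 3.58.1 and leaving out each letter.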

Additional observations from a re-analysis of the deposited data

How the results depend on the processing

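The counts of genes past the size rule depended on the cells and the pseudocount. With 20 CPM added, 116 genes were higher at 2 d over all 101 cells, and 100 were higher and 61 lower in oligodendrocyte-like cells. In the vSVZ gates only, 433 were higher and 202 lower over all cells and 416 and 257 in oligodendrocyte-like cells; in the vSVZ oligodendrocyte gate alone, 504 and 220. In striatal cells only, an alternative chosen after seeing the data, 216 were lower in oligodendrocyte-like cells. The alternatives were run for the 20 genes with the largest ratios in each set of cells and for 20 genes of the gate test, and none of these changed its direction; other named ratios were not recomputed. In oligodendrocyte-like cells 107 of these ratios lay within the counting interval of the reported value and 73 beyond it, and over all 101 cells 109 and 111. Ratios against a level of 0 depended on the pseudocount: with 1 and 20 CPM added, Map3k6 had 8.16 and 3.93 and Socs3 7.77 and 3.56 (log2). In the gate test, DESeq2 called 956 higher and 2317 lower genes, limma with each cell given the same weight 612 and 2539, and edgeR without a filter on low counts 677 and 1191; without the 2 cells of another class or label, chosen after seeing the data, 646 rose and 2408 fell. With the letter as a replicate block 565 rose and 589 fell, and of the 20 genes named all kept an adjusted p under 0.05. Without 1 letter, the counts ranged from 0 to 54 higher and from 0 to 19 lower. Leaving out a letter leaves 2 sums a gate, and fewer residual degrees of freedom. Of 200 values of single genes under the alternatives of the gate test, 153 kept their side of the threshold and 47 did not. Depth limits what can be said of low genes: 3 counts over the oligodendrocyte gate are 0.439 CPM, and over the 51 cells of 21 d 0.338 CPM.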
